A study of Homo sapiens with 6 samples.

Results

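The ERK feedback genes are a set of genes that ERK signalling switches on and whose products, apart from a pair of transcription factors, hold that signalling back. The 10 genes chosen are the MAPK phosphatases DUSP4, DUSP5 and DUSP6, the Sprouty genes SPRY1, SPRY2 and SPRY4, the Sprouty-related genes SPRED1 and SPRED2, and the ETS factors ETV4 and ETV5. They were picked by name, through their NCBI gene identifiers, with earlier results of these data known. All 10 were found among the 28395 genes of the count table. RNA-sequencing was performed on 3 libraries of U251 cells with wild-type NUAK2 (WT) and 3 libraries of U251 cells whose NUAK2 gene had been cut by CRISPR-Cas9 (NUAK2-CR). U251, labelled U251MG, is an established human glioblastoma astrocytoma line, and NUAK2 encodes a serine/threonine kinase of the AMPK family. The labels give no drug treatment, and the study's methods describe culture in medium with fetal bovine serum. NUAK2-CR cells came from sorted single cells that had taken up 2 lentiviral guide vectors, so each NUAK2-CR line is 1 clone. The labels do not say which clone a library came from, nor whether replicates were separate cultures. The p-values thus measure only the spread between these libraries, which may be technical. A feature of a clone cannot be told apart from NUAK2 loss. The study's methods describe no control vector for the U251 WT cells. Effects of the vectors or of sorting thus cannot be told apart from NUAK2 loss either.

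Growth factor receptors activate RAS, which sets off the kinases RAF, MEK and ERK in turn. Active ERK raises transcription of genes that then dampen it. Dual-specificity phosphatases (DUSPs) of the MAPK phosphatase class remove the phosphates that keep ERK active, DUSP6 in the cytoplasm and DUSP4 and DUSP5 in the nucleus. Sprouty proteins act upstream, between receptors and RAF, and SPRED proteins bring the RAS inactivator neurofibromin to the membrane. ETV4 and ETV5 belong with ETV1 to the PEA3 subfamily of ETS factors, which ERK signalling induces and which carry its output to further genes. The repressor CIC holds several of these genes down until ERK phosphorylates it. Because of this wiring, mRNA levels of these genes are often read as a gauge of ERK output, for instance in gliomas, where receptor tyrosine kinases are commonly activated. ERK phosphorylation was not analysed here.

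Of the 10 ERK feedback genes, 9 had higher mRNA levels after NUAK2 targeting and none was lower (edgeR's quasi-likelihood test, Benjamini-Hochberg adjusted p-value under 0.05 over 14873 tested genes). Only SPRY2 did not pass. All 10 members passed the filter on low counts. For comparison, 26.3% of all tested genes were called higher and 28.2% lower. Because the members were chosen with earlier results known, such shares do not measure how unusual the set is. The count of 0 lower members was also 0 at an unadjusted p under 0.05 and with DESeq2. The rises ran from 1.40-fold for SPRED1 to 9.57-fold for SPRY1. The median log2 fold change of the 10 members was 1.10, against -0.01 over all tested genes. A log2 fold change over 1 was reached by 6 members (DUSP4, DUSP5, DUSP6, SPRY1, SPRY4 and ETV4), while 6.91% of tested genes were called higher by as much. DUSP6 and SPRY1 were differentially expressed genes by the study's threshold, which adds to the adjusted p-value a log2 fold change over 2 in size and which 4.72% of tested genes passed in either direction. In these bulk libraries, a higher level in all cells and a larger share of cells with a high level cannot be told apart. In 9 members every NUAK2-CR library lay above every WT library, as did 29.8% of tested genes.

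**Figure D1:**
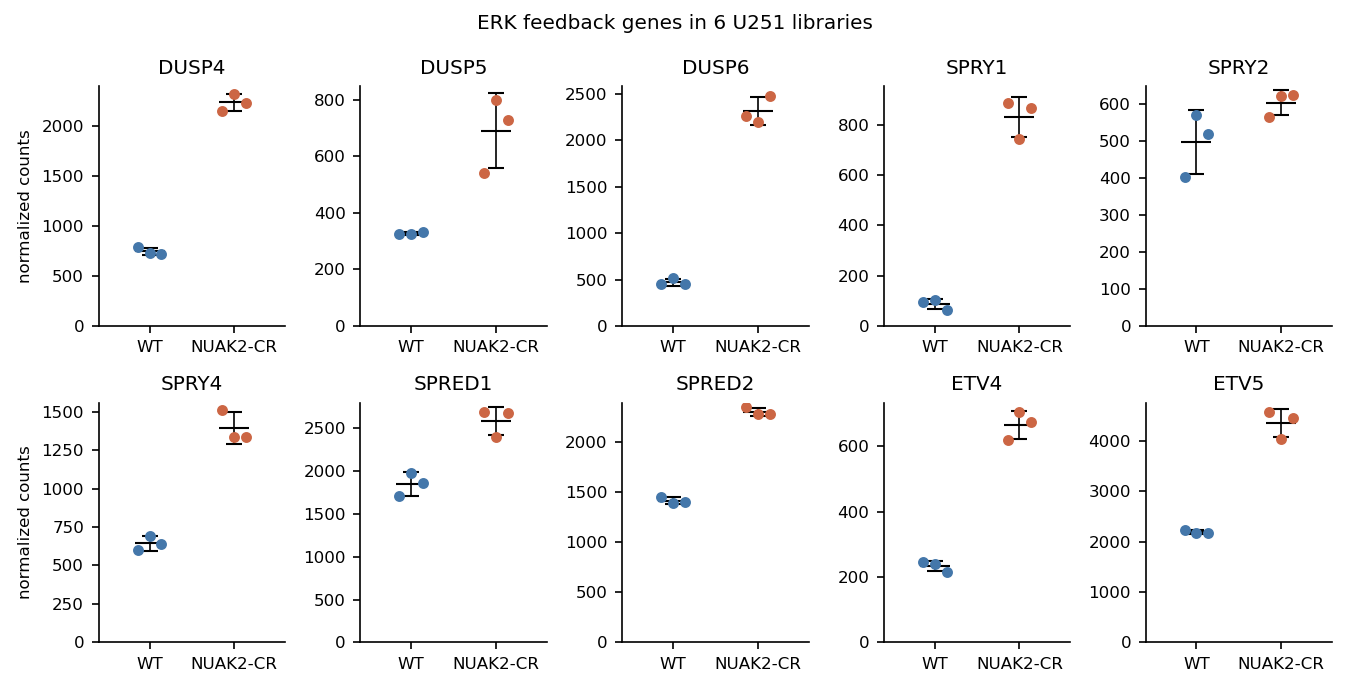
Normalized counts (vertical axes, each from 0) of the 10 ERK feedback genes in 3 WT and 3 NUAK2-CR libraries. Points are libraries, and the black bars give the mean and SD of the 3 libraries of a group. The groups are separate in every panel except that of SPRY2, where WT replicate 2 (572) lies above NUAK2-CR replicate 1 (565).

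The libraries held 29648445 to 55574081 counts on genes, with the WT libraries the larger, and the members' raw counts ranged from 60 to 4063. Values below are normalized counts, that is, counts rescaled to a common library size, the mean of the effective ones. NUAK2 itself fell from 1654 ± 243 to 869.5 ± 83.2 normalized counts (SD, n = 3 each, edgeR adjusted p = 1.8e-05). Transcripts of the targeted gene were thus still counted in NUAK2-CR cells. The study checked the deletion in 3 independent U251 clones by immunoblot and qPCR and reported it as successful. These counts do not measure protein. The log2 fold change of NUAK2 was -0.93, and the tested genes next to it on its chromosome had a median of -0.44, which leaves -0.49. Of 8 glioma line markers 7 were lower in NUAK2-CR and none was higher, against 28.2% lower and 26.3% higher over all tested genes. The summed level of these markers was 334035 to 370815 normalized counts in WT and 146830 to 153589 in NUAK2-CR. None of the 8 was at or under 3 counts in every library. The named ones were GFAP, with a log2 fold change of -2.56, the stem cell filament NES, with -1.56, S100B, with -2.60, and the hyaluronan receptor CD44, with -1.55. Of 8 markers of other cell types 4 were tested, of which 1 was higher, 1 lower and 2 not called. The leukocyte marker PTPRC and the oligodendrocyte marker MOG were at or under 3 counts in every library. The summed level of these 8 went from 666 to 750 in WT to 237 to 280 in NUAK2-CR, most of it from CD68, a lysosomal protein of macrophages that other cells also make, which had a log2 fold change of -1.59. Library size and glioma markers thus moved with the groups, and their part in the results below was not tested.

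Promoter sequence is shown first for the searched member with matches to the CIC motif and for the Sprouty pair that differed most in fold change. RefSeq windows of 300 bases ran from 250 before to 50 after a transcription start in GRCh38.p14. They were used for 6 of the 10 members (DUSP6, SPRY1, SPRY2, SPRY4, SPRED1 and SPRED2), with 10 windows in all. Windows of DUSP5, ETV4 and ETV5 were not matched, and DUSP4 was left out because of its chromosome. None of these members was searched. The 10 windows were searched on both strands for the CIC octamers TGAATGAA, TGAATGGA, TCAATGAA and TCAATGGA and the ETS core CCGGAA. The AP-1 letters TGACTCA and TGAGTCA and the cAMP response element TGACGTCA were searched in the same way. Among the windows searched, only that of DUSP6 held a CIC octamer, and it held 2. Both were TCAATGGA on the opposite strand, at bases -24 to -17 and 2 to 9 counted from the start, whose first base is 1. At least 1 CIC octamer stood in 3.76% of 35097 windows of the same length, and 2 or more in 0.328%. The second octamer lies past the 250 bases searched first, which held 1, and the window was widened after it was seen, so the share with 2 is no measure of how unusual DUSP6 is. The 270 bases shown are chr12:89352482-89352751 on the minus strand, printed 5′ to 3′ up to base 20 after the start, with the octamers in capitals as they read on this strand.
DUSP6: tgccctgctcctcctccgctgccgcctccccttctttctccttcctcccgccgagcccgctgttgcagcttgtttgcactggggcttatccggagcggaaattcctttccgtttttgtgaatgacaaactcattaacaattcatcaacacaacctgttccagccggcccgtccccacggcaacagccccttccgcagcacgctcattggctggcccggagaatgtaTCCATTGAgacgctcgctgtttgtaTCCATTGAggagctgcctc

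The ETS core was found once in a SPRY1 window, at bases -67 to -62, and once in a SPRY2 window, at bases -142 to -137, and in 17.3% of all windows. The part of these letters in the fold changes of SPRY1 and SPRY2 was not tested. The AP-1 letters stood in 1 SPRED2 window, across its start, and in 4.95% of all windows. No window searched for the members held the cAMP response element, which 1.85% of all windows held. The windows below are chr4:123398136-123398405 on the plus strand for SPRY1 and chr13:80341107-80341376 on the minus strand for SPRY2, each 270 bases from 250 before the start, with the ETS core in capitals.
SPRY1: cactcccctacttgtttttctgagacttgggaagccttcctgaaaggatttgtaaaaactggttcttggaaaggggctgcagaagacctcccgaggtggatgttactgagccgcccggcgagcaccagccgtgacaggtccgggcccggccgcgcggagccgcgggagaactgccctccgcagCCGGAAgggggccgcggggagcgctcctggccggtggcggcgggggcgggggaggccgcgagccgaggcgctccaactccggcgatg
SPRY2: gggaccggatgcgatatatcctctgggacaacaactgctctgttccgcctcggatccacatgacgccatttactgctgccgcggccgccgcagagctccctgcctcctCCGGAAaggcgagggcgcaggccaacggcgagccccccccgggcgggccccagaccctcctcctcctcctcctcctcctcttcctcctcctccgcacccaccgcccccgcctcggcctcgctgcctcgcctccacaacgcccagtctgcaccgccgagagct

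All 3 MAPK phosphatases of the set rose. DUSP6 (gene 1848, chr12:89347235-89352501), the ERK-selective phosphatase of the cytoplasm, had 454, 515 and 447 normalized counts in replicates 1 to 3 of WT against 2265, 2199 and 2482 in those of NUAK2-CR. The lowest NUAK2-CR library was thus several times the highest WT library. The means were 472 ± 37.5 and 2315 ± 148 (SD, n = 3 each), a 4.91-fold rise and a log2 fold change of 2.30 ± 0.09 (SE, edgeR adjusted p = 1.12e-09). DUSP4 (gene 1846, chr8:29333064-29350684), an inducible nuclear phosphatase, had 790, 733 and 723 in WT against 2156, 2322 and 2236 in NUAK2-CR. Its libraries were tightly grouped within each condition, and it rose 2.99-fold, with a log2 fold change of 1.58 ± 0.08 (SE, edgeR adjusted p = 6.84e-09). DUSP5 (gene 1847, chr10:110497907-110511533), a nuclear phosphatase that binds ERK, had 324, 324 and 331 in WT against 542, 800 and 729 in NUAK2-CR. The WT values were nearly the same, while NUAK2-CR replicate 1 lay well below the other two NUAK2-CR libraries and still above all of WT. The log2 fold change of DUSP5 was 1.08 ± 0.14 (SE, edgeR adjusted p = 2.99e-05). A DUSP5 pseudogene, DUSP5P1, had 6 to 33 counts per library, and reads aligned to both are left out by the default counting.

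The other MAPK phosphatases went in both directions. Of 7 further genes of the class 5 were tested, of which 1 was higher, 2 were lower and 2 were not called. Their median log2 fold change was -0.47. Over all tested genes, 26.3% were called higher and 28.2% lower. DUSP10, which acts mainly on JNK and p38, fell from 451 ± 44.5 to 182 ± 33.6 normalized counts (SD, n = 3 each). Its log2 fold change was -1.31 ± 0.15 (SE, edgeR adjusted p = 1.66e-05). DUSP1, an immediate-early phosphatase of JNK, p38 and ERK, had a log2 fold change of -0.99, and DUSP16, a JNK phosphatase, had 0.45. The cytoplasmic ERK phosphatase DUSP7 had 0.12 (adjusted p = 0.326 from edgeR) and was the most abundant of the class per kilobase in WT. DUSP8 and DUSP9 had too few counts to be tested.

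Among the Sprouty genes, SPRY1 and SPRY4 rose and SPRY2 did not pass the test. SPRY1 (gene 10252, chr4:123396795-123403760) had 94.3, 102 and 64.5 normalized counts in WT against 888, 742 and 868 in NUAK2-CR. The WT libraries were all low and the NUAK2-CR libraries all far above them. Its mean rose from 87.0 ± 19.9 to 833 ± 79.3 (SD, n = 3 each), a log2 fold change of 3.24 ± 0.16 (SE, edgeR adjusted p = 8.51e-09), and 0.545% of tested genes had a larger one. SPRY4 (gene 81848, chr5:142310430-142325021), which inhibits receptor signalling upstream of RAF, had 598, 694 and 637 in WT against 1514, 1333 and 1338 in NUAK2-CR. Its rise was 2.17-fold, with a log2 fold change of 1.12 ± 0.09 (SE, edgeR adjusted p = 6.8e-07). SPRY2 (gene 10253, chr13:80335976-80341126), the member with the widest spread in WT relative to its difference, had 404, 572 and 520 in WT against 565, 622 and 625 in NUAK2-CR. The groups overlapped. The log2 fold change of SPRY2 was 0.28 with a 95% interval from 0.000285 to 0.56 and an unadjusted p of 0.0498 by edgeR's test (adjusted p = 0.0839). Leaving out WT replicate 2 gave 0.39 (adjusted p = 0.0294 from edgeR) and so passed the threshold, while leaving out WT replicate 1 gave 0.15 (adjusted p = 0.241 from edgeR). SPRY3 had too few counts to be tested.

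Both SPRED genes rose, by less than the other called members. SPRED1 (gene 161742, chr15:38252836-38357249), the gene mutated in Legius syndrome, had 1707, 1977 and 1865 normalized counts in WT against 2684, 2399 and 2675 in NUAK2-CR. All NUAK2-CR libraries lay above WT, and the log2 fold change was 0.48 ± 0.08 (SE, edgeR adjusted p = 0.000216). SPRED2 (gene 200734, chr2:65307175-65432599) had 1455, 1391 and 1403 in WT against 2349, 2278 and 2280 in NUAK2-CR, with no library near the other group. Its log2 fold change was 0.70 ± 0.07 (SE, edgeR adjusted p = 2.68e-06). SPRED3, the remaining family member, had a log2 fold change of 0.41 ± 0.09 (SE, edgeR adjusted p = 0.00163). A larger log2 fold change than that of SPRED2 was found in 12.6% of tested genes and than that of SPRED1 in 19.0%.

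The PEA3 factors rose together. ETV5 (gene 2119, chr3:186046314-186109089) had 2234, 2177 and 2170 normalized counts in WT against 4576, 4038 and 4460 in NUAK2-CR, with a log2 fold change of 0.99 ± 0.07 (SE, edgeR adjusted p = 1.9e-07). Per kilobase of transcript it was the most abundant member in both conditions. ETV4 (gene 2118, chr17:43527846-43546340) had 244, 239 and 215 in WT against 618, 704 and 673 in NUAK2-CR, a 2.86-fold rise with a log2 fold change of 1.51 ± 0.11 (SE, edgeR adjusted p = 3.26e-07). ETV4 overlaps DHX8, a helicase gene with 2682 to 8146 counts per library, and the authors counted with the default parameters of featureCounts, which do not use strand, so its counts are uncertain. RefSeq also places POC1B-DUSP6, SPRY4-IT1 and ETV5-AS1 over DUSP6, SPRY4 and ETV5. Unlike DHX8, these have no row in the count table. How far reads from them entered the counts of these 3 members was not analysed, so those counts are uncertain too. DHX8 moved the other way, with a log2 fold change of -0.51. ETV1, the PEA3 factor outside the set, rose from 1808 ± 79.3 to 7534 ± 610 normalized counts (SD, n = 3 each), a log2 fold change of 2.06 ± 0.08 (SE, edgeR adjusted p = 9.72e-10), more than either member.

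**Figure D2:**
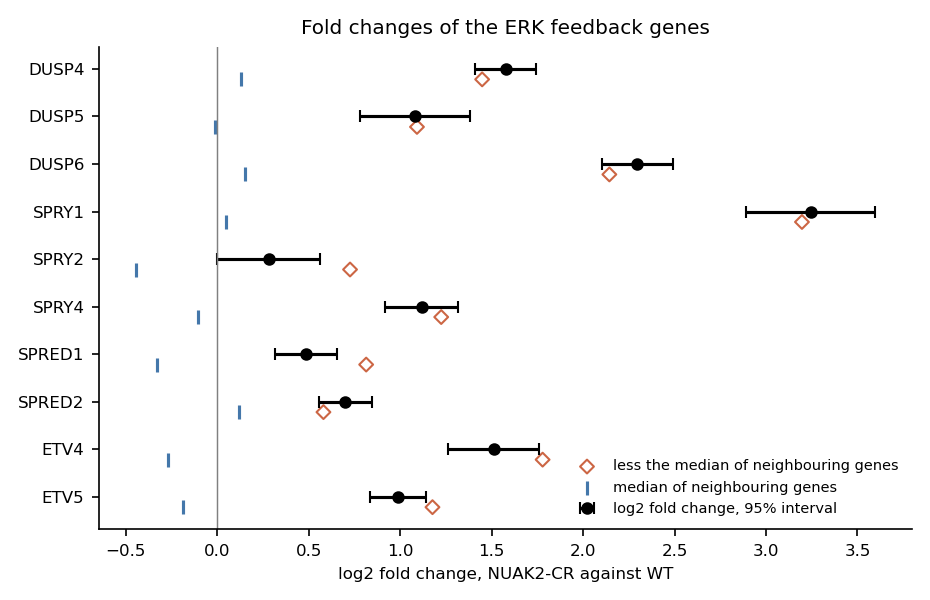
Log2 fold changes of the ERK feedback genes (horizontal axis, NUAK2-CR against WT) with 95% intervals from edgeR's fit of 3 libraries a group, the median log2 fold change of the neighbouring tested genes on the chromosome (ticks), and the difference of the 2 (diamonds). All 10 diamonds lie above 0, from 0.58 for SPRED2 to 3.20 for SPRY1.

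The members' surroundings on the chromosomes were examined because cancer lines and their clones can differ in copy number. The 10 members lie on 10 different chromosomes. The median log2 fold change of up to 50 tested genes on either side ranged from -0.44 around SPRY2 to 0.15 around DUSP6, and was below 0 for 6 members. SPRY2, the member that did not pass, had the lowest surroundings, and SPRED1 had -0.33 around it. Less these medians, SPRY2 had 0.73, SPRED1 0.81 and DUSP6 2.14 on the log2 scale, and the median of the 10 members was 1.20 in place of 1.10. These values carry no test, and the part of copy number in the fold changes was not tested.

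On the scale of normalized counts per kilobase of transcript, which allows levels of different genes to be compared, the members spanned 16.1-fold in WT and 4.04-fold in NUAK2-CR. In WT the order of the levels was ETV5 (537), SPRED2 (313), SPRED1 (254), SPRY2 (218), DUSP4 (135), DUSP5 (132), SPRY4 (131), DUSP6 (130), ETV4 (99.7) and SPRY1 (33.4). DUSP4, DUSP5, SPRY4 and DUSP6 differed by less than the SD of DUSP4, SPRY4 or DUSP6 over 3 libraries, and SPRED1 and SPRY2 by less than the SD of SPRY2. In NUAK2-CR the order was ETV5 (1068), DUSP6 (638), SPRED2 (510), DUSP4 (403), SPRED1 (356), SPRY1 (320), ETV4 (285), SPRY4 (284), DUSP5 (279) and SPRY2 (264). DUSP6 moved from rank 8 to rank 2 and SPRY1 from rank 10 to rank 6, whereas SPRY2 moved from rank 4 to rank 10. ETV4, SPRY4, DUSP5 and SPRY2 differed by less than the SD of DUSP5 in NUAK2-CR, which was 53.7 per kilobase.

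**Figure D3:**
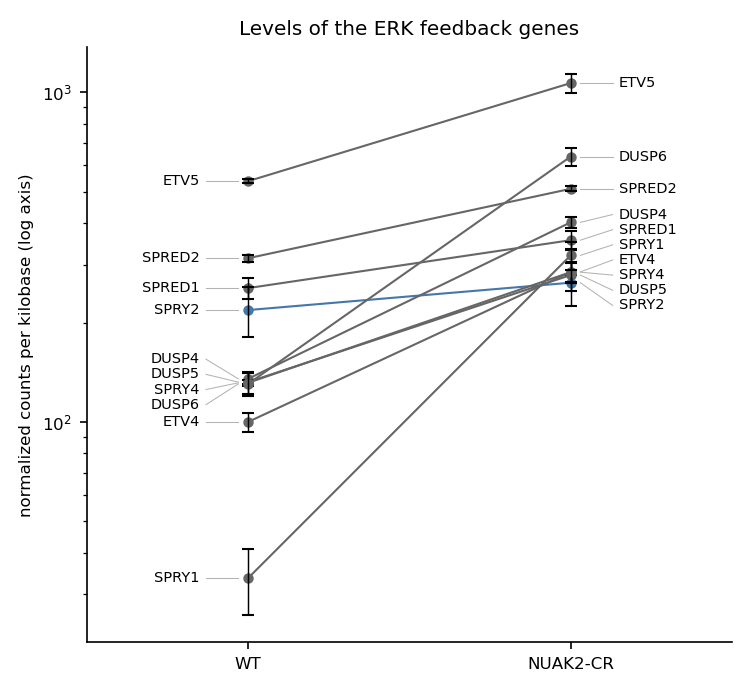
Levels of the 10 members in normalized counts per kilobase of the canonical transcript (vertical log axis) in WT and NUAK2-CR. Points are means and bars SDs of 3 libraries, lines join the same gene, and the blue line is SPRY2, which went from rank 4 in WT to rank 10 in NUAK2-CR.

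The share of each gene in its family, in counts per kilobase, is given as a description. SPRY1 made up 8.79% ± 2.17 of all Sprouty counts per kilobase in WT and 36.7% ± 2.10 in NUAK2-CR (SD, n = 3 each), while SPRY2 went from 56.7% ± 3.64 to 30.5% ± 2.67. The Sprouty total went from 383 to 869 per kilobase, and its largest part passed from SPRY2 to SPRY1, followed by SPRY4 with 32.7%. DUSP6 went from 7.77% ± 0.807 to 26.4% ± 1.66 of the 10 MAPK phosphatases and DUSP4 from 8.04% to 16.7%, whereas DUSP1 went from 22.4% to 7.84% and DUSP10 from 10.4% to 2.90%. The phosphatase total rose less than its feedback members, from 1678 to 2415 per kilobase. In the PEA3 subfamily ETV1 went from 30.5% to 46.3% and ETV5 from 58.6% to 42.4%, with a total of 917 in WT and 2519 in NUAK2-CR. In the SPRED family SPRED1 was at 37.0% and 34.7%, SPRED2 at 45.6% and 49.7% and SPRED3 at 17.4% and 15.6%. In 12 of 16 shares compared the groups did not overlap, each with p = 0.1 by a two-sided exact permutation test. This is the smallest p that 3 against 3 libraries allow, so no share could reach 0.05. In levels of single genes, a different measure, the groups did not overlap in 9125 of all 14873 tested genes. No such count was made for shares over all genes. Shares of a family add up to 100%, so they are not separate results.

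**Figure D4:**
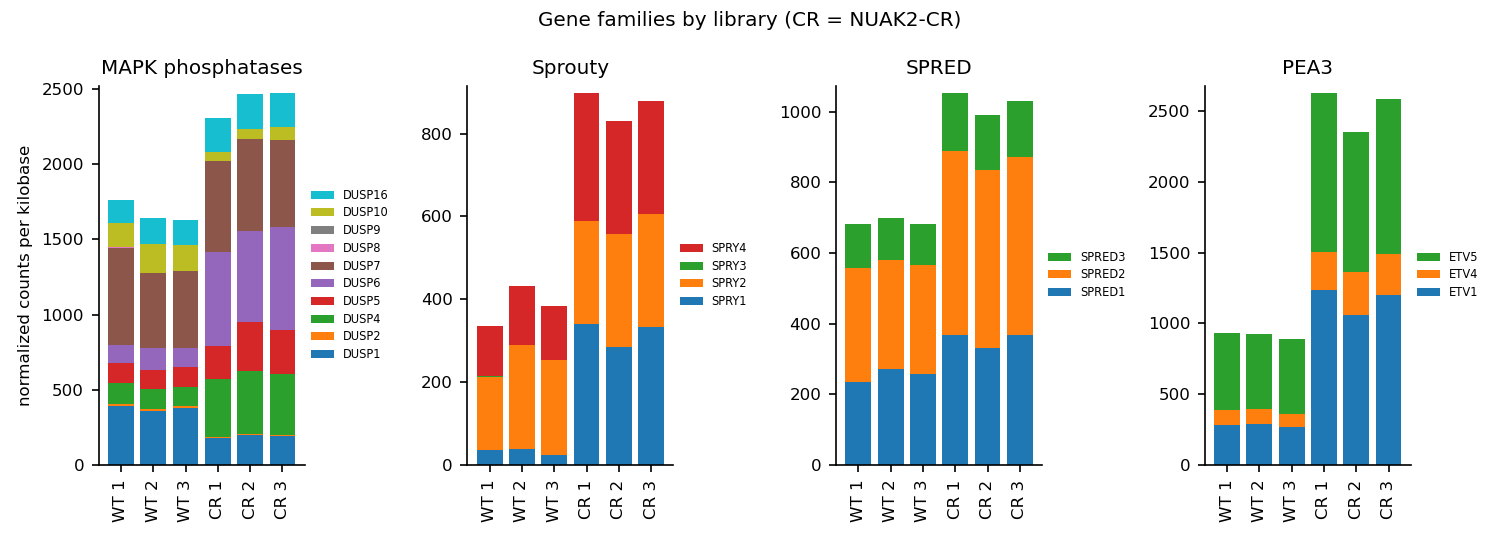
Normalized counts per kilobase (vertical axes from 0) of 4 gene families in each of the 6 libraries, stacked by gene. The Sprouty bars grow mainly through SPRY1 (blue, 33.4 to 320 on average) and SPRY4, the phosphatase bars through DUSP6 (130 to 638) and DUSP4, and the PEA3 bars through ETV1 and ETV5.

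The members were then set beside the pathway that controls them, in lists also chosen with earlier results of these data known. Of 12 other genes that ERK signalling induces, 11 were tested, of which 8 were higher, 1 was lower and 2 were not called. Their median log2 fold change was 0.88. For comparison, 26.3% of all tested genes were called higher and 28.2% lower. EGR2, a zinc finger factor of the early growth response family, rose from 54.7 ± 7.29 to 897 ± 56.1 normalized counts (SD, n = 3 each), a log2 fold change of 4.05 ± 0.14 (SE, edgeR adjusted p = 4.4e-10). Its relatives EGR3 and EGR1 had log2 fold changes of 2.14 and 1.29, and the ephrin receptor EPHA4 had 1.09. The immediate-early gene FOS did not pass, with 0.21 (adjusted p = 0.517 from edgeR), nor did PHLDA1, with 0.01. The cell cycle gene CCND1 (0.88) and MYC (0.99) were higher and EPHA2 (-0.40) was lower. Less the median of the neighbouring tested genes, MYC had 0.26, since that median was 0.73, and EPHA2 had -0.11, while EGR2 had 3.92. CCND1, MYC, EPHA2, FOS and PHLDA1 were named after their values were seen.

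The cascade itself moved in both directions, about as often as all tested genes, of which 26.3% were higher and 28.2% lower. Of 22 genes from adaptors to RSK kinases 6 were higher, 7 were lower and 9 were not called, with a median log2 fold change of 0.09, and none of them had an absolute log2 fold change over 1. Of 15 RAS GTPase activators and other brakes 14 were tested, of which 8 were higher and 1 was lower, with a median of 0.43. IL17RD, also called SEF, a membrane inhibitor of FGF receptor signalling that belongs to the same expression group as the Sprouty genes in embryos, rose from 2699 ± 263 to 13278 ± 216 normalized counts (SD, n = 3 each), a log2 fold change of 2.30 ± 0.08 (SE, edgeR adjusted p = 6.14e-10). ERRFI1, a feedback inhibitor of EGFR, had 1.28, and the RAS GTPase activator RASA1 had 1.03. Among 10 nuclear factors of the pathway 5 were higher and none was lower (0 also at an unadjusted p under 0.05 in edgeR; DESeq2 counts for this list were not computed), with a median of 0.19. CIC mRNA had a log2 fold change of 0.25 (adjusted p = 0.0371 from edgeR). Its groups overlapped, with WT replicate 1 (9171 normalized counts) above NUAK2-CR replicate 3 (8965).

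At the cell surface the changes were larger and split. Of 18 growth factor receptors 16 were tested, of which 7 were higher and 7 lower, with a median log2 fold change of 0.11. The shares over all tested genes, for these receptors and the ligands below, were 26.3% higher and 28.2% lower. NTRK2, the BDNF receptor, had -2.86, PDGFRA had -2.54 and FGFR4 had -1.66, whereas the insulin receptor INSR had 1.58. FGFR1 (1.16), PDGFRB (1.03) and EGFR (0.70), named after their values were seen, were higher, with 9138, 1763 and 5757 normalized counts in NUAK2-CR. NTRK3 (-1.19), FGFR3 (-0.85), FGFR2 (-0.58) and IGF1R (-0.47), also named after their values were seen, were lower. These had 626, 294, 497 and 8264 normalized counts in NUAK2-CR. KIT (0.65), AXL (0.34) and MET (0.29) were the remaining higher receptors. Of 21 ligands 17 were tested, of which 7 were higher and 3 lower, with a median of 0.23. FGF18 rose from 133 ± 19.6 to 788 ± 48.0 normalized counts (SD, n = 3 each), a log2 fold change of 2.56 ± 0.13 (SE, edgeR adjusted p = 1.16e-08). PDGFB had 1.60, FGF5 1.42 and BTC, an EGFR ligand, 1.05.

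**Figure D5:**
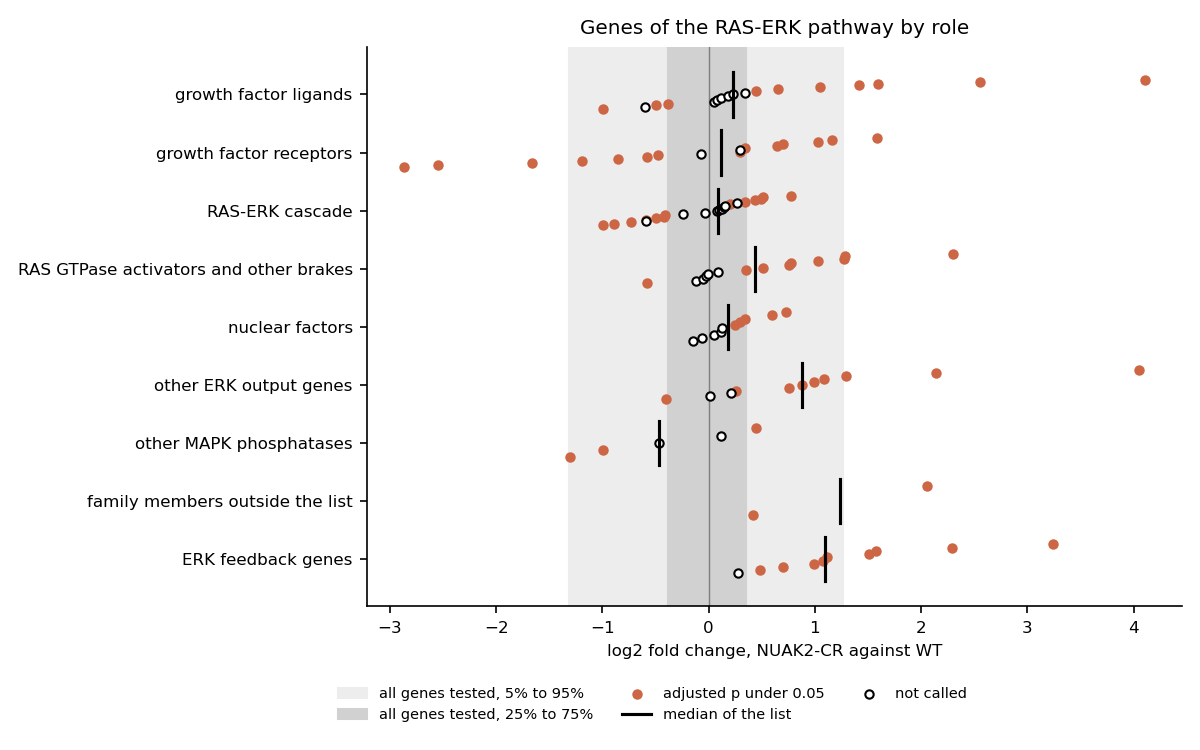
Log2 fold changes (horizontal axis, NUAK2-CR against WT) of the tested genes of 9 lists ordered from ligands to the ERK feedback genes. Filled points had an adjusted p-value under 0.05, open points did not, black bars are list medians, and the grey bands run from the 5th to the 95th and from the 25th to the 75th percentile of all tested genes. The median is 0.09 for the cascade and 1.10 for the ERK feedback genes.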

How the data were processed

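RNA-sequencing covered 3 WT and 3 NUAK2-CR libraries of U251 cells, grouped by the sample labels. According to the study's methods and processing notes, the authors made stranded mRNA libraries, converted reads with bcl2fastq, used Trimmomatic for trimming and HISAT2 for alignment to hg38, and deposited raw counts per gene from featureCounts with default parameters, which use neither strand nor reads with several alignments. The annotation is not given in the sources used here. Of 28395 identifiers 27745 were matched to a symbol.

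Counts were fitted in R 4.3.3 with edgeR 4.0.16 (filterByExpr, TMM, quasi-likelihood F test, Benjamini-Hochberg adjustment over 14873 genes, prior count 0.125). The fit was also run on simulated counts in which far fewer genes were changed than were called here. That run does not test error rates in data like these. The study used DESeq2, run here (1.42.0) as an alternative, with other scalings, filters, a prior count of 2, a replicate block and each library left out. The floor was 3 counts, and covers counting error only. Levels per kilobase used the Ensembl canonical transcript of GENCODE.

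Members and lists were chosen with earlier results of these data known. Named genes were the members, NUAK2 and, from each other list, up to 4 genes with adjusted p under 0.05, an absolute log2 fold change over 1, a mean of 100 or more normalized counts in 1 group and the largest changes. Other non-members named, such as DUSP1, DUSP7, DUSP16, SPRED3 and CIC, were chosen after their values were seen. Sequences are from RefSeq. Motifs were first searched in the 250 bases before each start; the window was widened to 300 bases after a second octamer was seen past the DUSP6 start. In the 250-base windows 3.18% held a CIC octamer and 14.5% an ETS core. Figures were drawn with Python 3.11.15, pandas 2.3.3 and matplotlib 3.10.9.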

Additional observations from a re-analysis of the deposited data

How the results depend on the processing

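In 14 alternatives to the fit (DESeq2, 3 other scalings, 2 other filters, a prior count of 2, a replicate block and 6 fits that each left out 1 library) the 9 called members stayed higher and none reversed. The median log2 fold change of the members ran from 1.08 without WT replicate 1 to 1.16 without NUAK2-CR replicate 1, and was 1.20 less the neighbouring genes. SPRY2 ranged from 0.15 to 0.39, with adjusted p from 0.0294 to 0.241. It was called without WT replicate 2, where 10 members were higher, and with the replicate block (log2 fold change 0.29, adjusted p = 0.0382, edgeR), where 10 were also higher. The block changed no other call among the members. The labels do not say whether same-numbered libraries were prepared together. Deviations of same-numbered WT and NUAK2-CR libraries from their group means correlated at 0.049, -0.111 and 0.142 over 11769 genes. Not every library correlated best with its own number. Deviations from a mean of 3 libraries constrain each other, so these values cannot decide whether the numbers pair the samples. Over all genes, 702 passed the study's threshold, against 903 with DESeq2, 969 with no filter and 339 with at least 10 counts in every library, a filter that leaves out genes near 0 in a group. Depth limited the members little, since each had at least 60 counts in every library. No test for outlying samples was run on these groups of 3 libraries.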

Other observations

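HRAS, 1 of the 22 cascade genes, varied more between replicates than between groups, with 108, 460 and 41.9 normalized counts in WT against 159, 215 and 32.9 in NUAK2-CR. In the ligand list EREG, an EGFR ligand too low in both groups to be named by the rule, had 5.31, 1.93 and 0 normalized counts in WT against 68.6, 28.9 and 52.7 in NUAK2-CR. Both were chosen after their values were seen.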
